A study of Mus musculus with 4 samples.

Results

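The genes described here are 38 mouse genes of iron, zinc and metallothionein biology, out of 24344 distinct gene symbols in the deposited files. They were picked by gene symbol, with earlier results of these data known. There are 10 genes of the zinc exporter family Slc30a and 14 of the zinc importer family Slc39a. The metallothioneins Mt1, Mt2 and Mt3 and the ferritin genes Fth1 and Ftl1 were also included. The other 9 take up, move, export or sense iron. RNA was sequenced from aorta of C57BL/6 mice, 2 libraries labelled wild type and 2 labelled knockout for GGPPS (gene symbol Ggps1), the enzyme that makes the lipid geranylgeranyl diphosphate. All mice were 3 weeks old and no agent is named in the labels. Each library is labelled as male and female, and the labels give neither the number of animals in a library, nor which cells lost the gene, nor what drove the deletion. Values are FPKM, fragments scaled for transcript length and for the size of the library, so levels can be set side by side between genes. Of the 38 genes, 28 passed a filter of at least 1 FPKM in at least 2 libraries and were tested.

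Metallothioneins are small cysteine-rich proteins that bind zinc and copper, and their genes are known to be switched on by metals, oxidants and glucocorticoids. Zinc crosses membranes through exporters of the Slc30a family, which move it out of the cytosol, and importers of the Slc39a family, which bring it in from outside or from organelles. Iron enters cells bound to transferrin through the transferrin receptor, is stored in ferritin shells built of heavy and light chains, and leaves through ferroportin. A pair of iron-sensing RNA-binding proteins, encoded by Aco1 and Ireb2, is known to control ferritin translation and the stability of transferrin receptor mRNA.

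Ggps1 was at 8.96 and 10.6 FPKM across the wild-type pair and at 1.18 and 1.07 across the knockout pair, in the direction of its label (log2 fold change -2.34, SE 0.13, limma adjusted p = 3.5e-09). In bulk tissue, fewer cells of a type and less RNA per cell cannot be told apart, for this gene and for all members. Of the tested members, 14 rose and 3 fell in knockout by limma (adjusted p under 0.05), while 35.2% of all 12314 tested genes rose and 30.6% fell (65.7% in either direction). The 17 members that passed are 60.7% of the 28. With each library's values scaled to equal totals, 13 members were called higher and 7 lower, against 25.3% and 45.3% of all genes (70.6% together), and that scaling moved the all-gene median change from 0.03 to -0.20. With trends on transcript length and GC content removed, 19 were called higher and 1 lower, against 35.5% and 29.1% (64.5% together). Both knockout libraries lay above both wild-type libraries for 17 members and below them for 5, and the same was found for 43.6% and 39.6% of all tested genes, 83.1% in all. Among the members that passed, 9 rose by at least 1 on the log2 scale, a size reached by 10.9% of all tested genes as rises, and none of the 28 fell by as much, as 7.62% of all tested genes did. The median log2 fold change was 0.30 over the 28 members and 0.03 over all tested genes. All but Slc40a1 of the 28 were at 1 FPKM or more in each of the 4 libraries.

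**Figure D1:**
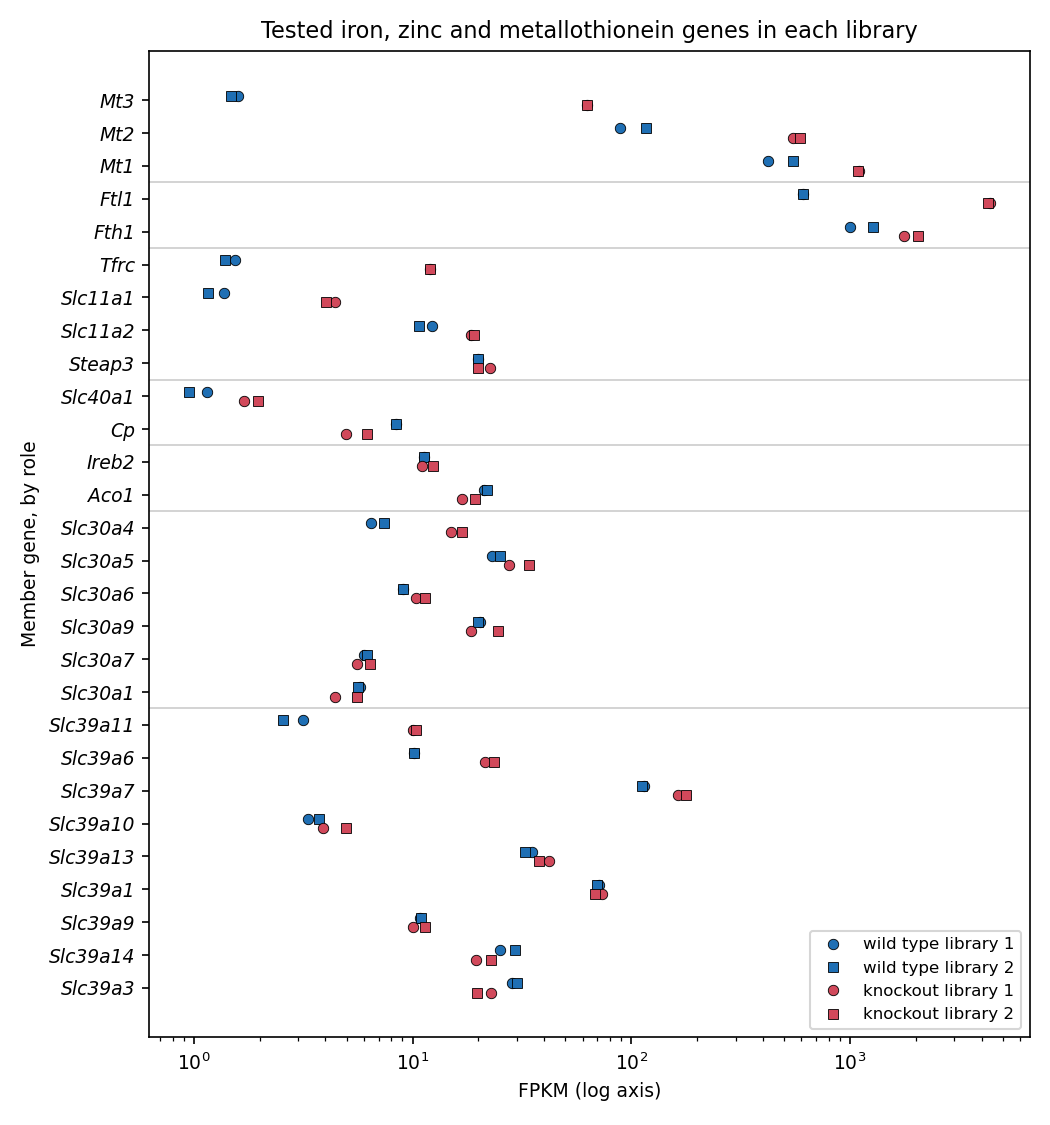
FPKM of the 28 tested members (log axis) in wild-type libraries 1 and 2 (blue) and knockout libraries 1 and 2 (red), grouped by role with grey lines between roles. The red and blue points are farthest apart for Mt3, Tfrc and Ftl1, and they overlap for 6 members.

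**Figure D2:**
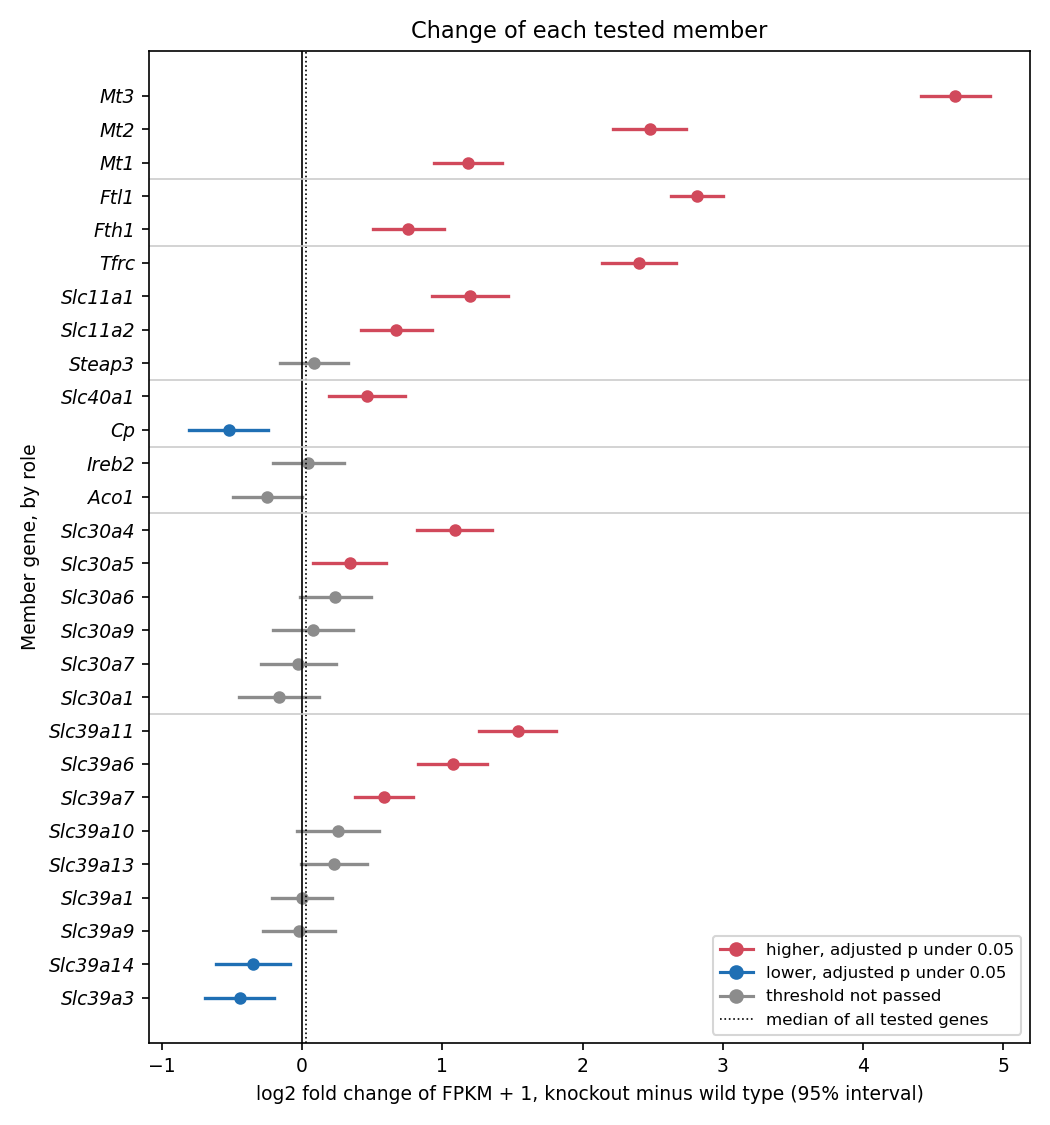
Log2 fold change of FPKM + 1, knockout minus wild type, of the same 28 genes by limma, with 95% intervals not adjusted for the number of genes. Red marks the 14 genes that rose, blue the 3 that fell and grey the 11 that did not pass the threshold, and the dotted line is the median of all tested genes.

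The 3 metallothionein genes rose together, and by very different amounts. Mt1 and Mt2 are the forms made in most tissues, while Mt3 is known mainly from brain. They stand in a row on mm10 chromosome 8, all on the plus strand and each with 3 exons: Mt3 at 94152607 to 94154146, Mt2 at 94172664 to 94173568 and Mt1 at 94179082 to 94180327, a stretch of 27721 bases. The 250 bases before the start of each gene, from the RefSeq table for GRCm38.p6 (the mm10 assembly), are shown because the 3 genes moved together, with those of the zinc exporter Slc30a1 beside them, a known target of the same zinc-sensing factor that did not pass the test. They cover chr8:94178839-94179088 for Mt1, chr8:94172368-94172617 for Mt2, chr8:94152357-94152606 for Mt3 and chr1:191906531-191906780 for Slc30a1, all on the plus strand.
Mt1: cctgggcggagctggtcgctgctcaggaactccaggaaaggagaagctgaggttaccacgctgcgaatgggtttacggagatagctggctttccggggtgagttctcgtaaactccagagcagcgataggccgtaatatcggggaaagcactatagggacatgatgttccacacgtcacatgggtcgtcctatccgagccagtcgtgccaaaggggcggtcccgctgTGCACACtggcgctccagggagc
Mt2: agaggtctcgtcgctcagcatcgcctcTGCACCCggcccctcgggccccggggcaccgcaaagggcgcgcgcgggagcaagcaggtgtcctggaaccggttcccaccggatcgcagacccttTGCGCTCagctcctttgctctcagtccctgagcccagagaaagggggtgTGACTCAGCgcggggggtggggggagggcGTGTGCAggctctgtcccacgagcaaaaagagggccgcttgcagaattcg
Mt3: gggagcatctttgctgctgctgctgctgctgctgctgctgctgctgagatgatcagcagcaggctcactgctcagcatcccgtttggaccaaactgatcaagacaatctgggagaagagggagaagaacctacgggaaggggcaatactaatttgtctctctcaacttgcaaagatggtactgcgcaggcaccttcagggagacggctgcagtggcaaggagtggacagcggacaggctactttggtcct
Slc30a1: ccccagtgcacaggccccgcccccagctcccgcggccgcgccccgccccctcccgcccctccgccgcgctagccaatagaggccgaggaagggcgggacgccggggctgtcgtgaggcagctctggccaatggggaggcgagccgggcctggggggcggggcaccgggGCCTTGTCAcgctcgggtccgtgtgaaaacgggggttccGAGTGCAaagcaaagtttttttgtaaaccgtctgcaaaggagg
Capitals mark, on either strand, the core of the metal response element (TGCACNC or TGCGCNC) and the core of the antioxidant response element (TGACNNNGC). Mt1 held 1 metal core and Mt2 held 3 with 1 antioxidant core, and Mt3 held neither. Slc30a1 held 1 of each. Of 32851 promoters of that length in the table, 21.4% held at least 1 metal core, 1.26% held at least 3 and 10.2% held the antioxidant core. In the 50 bases after the RefSeq start, Mt1 held 2 further metal cores and Mt2, Mt3 and Slc30a1 held 1 each. The count thus depends on where the start is placed and does not rank the genes. Bases further downstream were not searched. Promoters of 32 members were found in the table, under 43 entries, since some genes have several starts. Of these entries, 32.6% held a metal core, and Slc30a10, too low to be tested, held 3 as Mt2 did. The entries of Ftl1 and Fth1 held neither a metal nor an antioxidant core. A match is a stretch of letters, not a measured binding site.

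Mt3 was at 1.59 and 1.48 FPKM across the wild-type pair and at 62.9 and 62.7 across the knockout pair. The ratio of its mean FPKM was 41.0, and its log2 fold change was 4.66 (SE 0.11, limma adjusted p = 1.62e-12), with 22 of the 12314 tested genes above it. The spread within each genotype was small beside this difference. Mt2 was at 88.4 and 117 FPKM across the wild-type pair and at 549 and 593 across the knockout pair, a 5.57-fold rise (log2 fold change 2.48, SE 0.12, limma adjusted p = 1.12e-09). Mt1, the most abundant of the 3, was at 424 and 546 FPKM across the wild-type pair and at 1102 and 1085 across the knockout pair, a 2.25-fold rise (log2 fold change 1.18, SE 0.11, limma adjusted p = 7.14e-07). For each of the 3 genes both knockout libraries were above both wild-type libraries. The order of levels, Mt1 over Mt2 over Mt3, was the same in every library.

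Each gene's share of the metallothionein sum is given next. Mt1 gave 82.5% and 82.2% of the summed metallothionein FPKM in the wild-type pair and 64.3% and 62.3% in the knockout pair. Mt2 gave 17.2% and 17.6%, then 32.0% and 34.1%. The share of Mt3 was 0.309% and 0.222% in wild type and 3.67% and 3.60% in knockout. The ratio of Mt1 to Mt2 was 4.80 and 4.68 in wild type and 2.01 and 1.83 in knockout. These shares and ratios were not tested. The 3 genes summed to 514 and 665 FPKM across the wild-type pair and to 1714 and 1741 across the knockout pair, 2.93-fold by the means. All 3 rises kept their call under each of the 13 processing alternatives. With trends on transcript length and GC content removed the log2 fold changes were 4.36 for Mt3, 1.98 for Mt2 and 0.80 for Mt1. Exons of Mt2 share 432 bases with a gene annotated on the opposite strand, Gm45774, and the sources used here do not say if strand was used in counting. Mt4, the fourth metallothionein gene of the cluster, was listed at 0 in all 4 libraries.

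**Figure D3:**
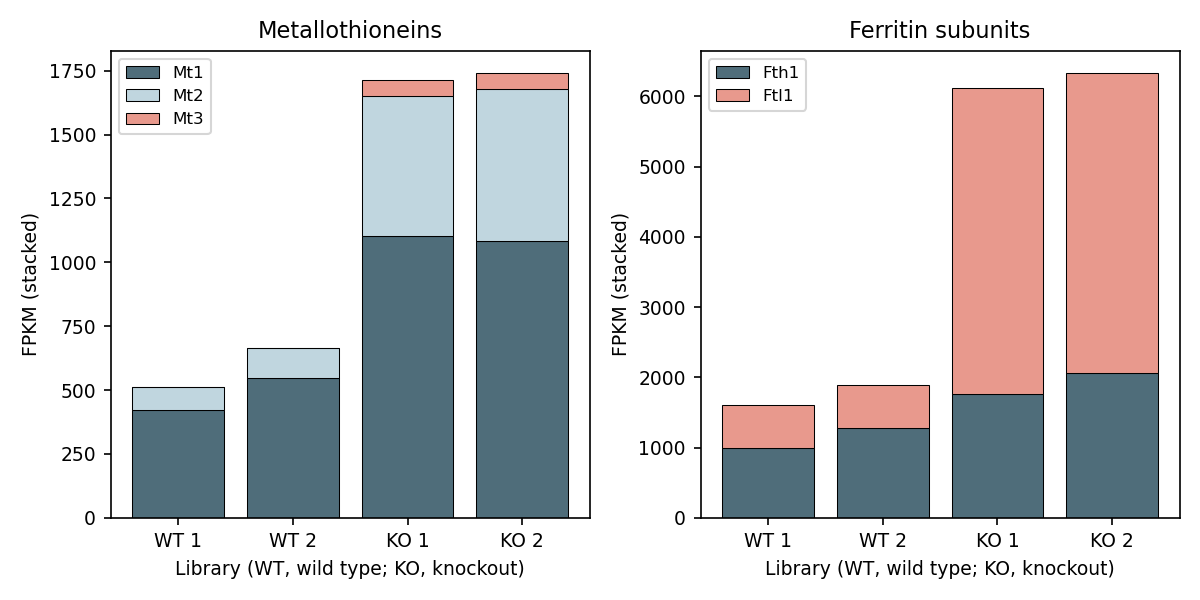
Stacked FPKM of the metallothioneins Mt1, Mt2 and Mt3 (left) and of the ferritin subunits Fth1 and Ftl1 (right) in each library, with both axes starting at 0. The metallothionein columns reach 514 and 665 FPKM in wild type against 1714 and 1741 in knockout, and Ftl1 is the smaller ferritin part in both wild-type libraries and the larger one in both knockout libraries.

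Both ferritin genes rose, the light chain far more than the heavy chain. Fth1 encodes the heavy chain, which oxidises iron as it enters the shell, and Ftl1 encodes the light chain, which helps the iron core form. Ftl1 (mm10 chromosome 7, 45457944 to 45459884, minus strand) was at 612 FPKM in each wild-type library and at 4356 and 4273 across the knockout pair. This was a 7.05-fold rise (log2 fold change 2.82, SE 0.09, limma adjusted p = 1.45e-11), exceeded by 123 of all tested genes. Fth1 (chromosome 19, 9980598 to 9985098, plus strand) was at 995 and 1271 FPKM across the wild-type pair and at 1762 and 2058 across the knockout pair, a 1.69-fold rise (log2 fold change 0.76, SE 0.12, limma adjusted p = 7.19e-05). With equal library totals its log2 fold change was 0.50.

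The order of the ferritin chains turned over between genotypes. The ratio of Ftl1 to Fth1 was 0.615 and 0.481 in wild type and 2.47 and 2.08 in knockout, and this ratio was not tested. Fth1 had the highest mean of the 38 genes in wild type and Ftl1 the highest in knockout. Of the FPKM total, ferritin mRNA took 0.312% and 0.362% in the wild-type pair and 1.0001% and 1.0003% in the knockout pair. GENCODE names 2 pseudogenes after Ftl genes and 5 after Fth genes, and the sources used here do not say how fragments matching such copies were counted, so single ferritin values carry that uncertainty. Exons of Ftl1 also share 355 bases with Gm10252 on the opposite strand.

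The iron-responsive element is a short hairpin in the untranslated region of several iron genes, to which the iron sensors bind. It was searched for as a C, a stem of 5 bases, the loop CAGTGN and 5 bases that pair with the stem, G to T pairs allowed, on the sense strand of GENCODE transcripts. The matches in members are shown because ferritin and transferrin receptor genes, which the same sensors control, were among those that rose. They lie in the 5′ untranslated region of Fth1 (chr19:9982732-9982761, plus strand), Ftl1 (chr7:45459778-45459807, minus strand) and Slc40a1 (chr1:45925464-45925493, minus strand), and at 4 places in the 3′ untranslated region of Tfrc (chr16:32631219-32631248, chr16:32631598-32631627, chr16:32631663-32631692 and chr16:32631710-32631739, plus strand).
Fth1: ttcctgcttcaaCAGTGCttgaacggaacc
Ftl1: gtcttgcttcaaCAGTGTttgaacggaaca
Slc40a1: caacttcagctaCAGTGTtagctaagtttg
Tfrc site 1: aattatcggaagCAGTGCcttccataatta
Tfrc site 2: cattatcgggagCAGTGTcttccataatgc
Tfrc site 3: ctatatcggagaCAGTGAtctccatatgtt
Tfrc site 4: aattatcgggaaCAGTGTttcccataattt
Capitals mark the loop, and each line is 30 bases of the mm10 transcript written as DNA. In all, 31 of 20899 genes with a 5′ untranslated region (0.148%) and 129 of 21028 with a 3′ one (0.613%) held a match. A hairpin with an extra bulge or a mispaired stem would not be found by this search.

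Among the genes of iron uptake and movement, 3 of 4 rose, while 35.2% of all tested genes did. Tfrc, the transferrin receptor (chromosome 16, 32608920 to 32632794, plus strand), was at 1.55 and 1.39 FPKM across the wild-type pair and at 11.98 and 12.06 across the knockout pair. By mean FPKM it rose 8.20-fold (log2 fold change 2.40, SE 0.12, limma adjusted p = 1.61e-09), next to Mt3 the largest fold of the tested members. With a pseudocount of 5 its log2 fold change was 1.40. Slc11a2, the ferrous iron transporter of endosomes and gut, was at 12.2 and 10.7 FPKM across the wild-type pair and at 18.5 and 19.1 across the knockout pair (1.64-fold, log2 fold change 0.67, SE 0.12, limma adjusted p = 1.82e-04). Both knockout libraries were above both wild-type libraries for Tfrc and Slc11a2. With equal library totals the Slc11a2 value was 0.43. Exons of Slc11a2 share 402 bases with Gm5475 on the other strand. Slc11a1, the related transporter of phagocyte vesicles, was low, at 1.37 and 1.17 FPKM across the wild-type pair and at 4.41 and 4.02 across the knockout pair (log2 fold change 1.20, limma adjusted p = 1.75e-06, and 0.55 with a pseudocount of 5). Steap3, an iron reductase of endosomes, was at 19.8 FPKM in each wild-type library and at 22.5 and 19.8 across the knockout pair. Its difference did not pass (log2 fold change 0.09, 95% interval -0.16 to 0.33, limma adjusted p = 0.516), and it passed as higher once length and GC trends were taken out (0.34, adjusted p = 0.0127, the range being 0.0127 to 0.995).

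The export genes moved in opposite directions. Slc40a1, which encodes ferroportin, the iron exporter, was close to the filter, at 1.15 and 0.956 FPKM across the wild-type pair and at 1.69 and 1.96 across the knockout pair. It rose by 0.46 on the log2 scale (limma adjusted p = 5.4e-03). That call ended without wild-type library 2 (0.39, adjusted p = 0.0557) and without knockout library 2 (0.39, adjusted p = 0.0644), over a range of 0.00362 to 0.0644 in 12 alternatives, and the value was 0.17 with a pseudocount of 5 and 0.74 with one of 0.1. Cp, ceruloplasmin, the copper protein that oxidises iron as it leaves the cell, was at 8.44 and 8.40 FPKM across the wild-type pair and at 4.98 and 6.19 across the knockout pair. It fell 1.51-fold by the means (log2 fold change -0.52, SE 0.13, limma adjusted p = 0.00283) and is the one falling member whose call held under all 13 alternatives, with -0.34 at a pseudocount of 5. Hamp, the liver hormone hepcidin that blocks ferroportin, was listed at 0 in all 4 libraries.

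Neither iron sensor passed the test. Aco1 was at 21.2 and 21.8 FPKM across the wild-type pair and at 16.8 and 19.2 across the knockout pair, both knockout libraries below wild type (log2 fold change -0.25, SE 0.11, limma adjusted p = 0.07). It passed as lower in 3 of 13 alternatives, with equal library totals (-0.50), with equal upper quartiles (-0.34) and without knockout library 2 (-0.34), over a range of adjusted p of 0.000928 to 0.316. Ireb2 was at 11.3 and 11.2 FPKM across the wild-type pair and at 11.01 and 12.4 across the knockout pair, and its libraries overlapped (log2 fold change 0.04, 95% interval -0.21 to 0.30, limma adjusted p = 0.75). Its sign turned in 3 alternatives, and it passed as higher with length and GC trends removed (value 0.26). Its adjusted p lay between 0.0329 and 0.882 in all 13.

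Of the Slc30a genes, 6 of 10 were tested and 2 rose (33.3%, near the 35.2% of all tested genes). Slc30a4, which loads zinc into vesicles, was at 6.46 and 7.42 FPKM across the wild-type pair and at 15.0 and 16.8 across the knockout pair (2.29-fold, log2 fold change 1.09, SE 0.12, limma adjusted p = 3.73e-06). Both knockout libraries stood above both wild-type libraries. Slc30a5, which supplies zinc to enzymes of the secretory pathway, was at 23.1 and 25.0 FPKM across the wild-type pair and at 27.6 and 34.0 across the knockout pair (1.28-fold, log2 fold change 0.34, SE 0.12, limma adjusted p = 0.0242). The call was lost in 6 of 13 alternatives: with equal library totals (0.08, adjusted p = 0.508), with equal upper quartiles (0.25, 0.0513), with no filter (0.34, 0.0692), and without wild-type library 1 (0.28, 0.195), wild-type library 2 (0.40, 0.0597) or knockout library 2 (0.19, 0.121), over a range of adjusted p of 0.00361 to 0.508.

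The other tested exporters did not pass. Slc30a6, which pairs with Slc30a5, was at 9.09 and 9.04 FPKM across the wild-type pair and at 10.4 and 11.4 across the knockout pair (log2 fold change 0.24, 95% interval -0.02 to 0.49, limma adjusted p = 0.0921). It passed as higher without knockout library 1 (0.30, adjusted p = 0.0367, the range being 0.0367 to 0.98). Slc30a1, the exporter of the cell surface, was at 5.74 and 5.66 FPKM across the wild-type pair and at 4.43 and 5.59 across the knockout pair (log2 fold change -0.16, 95% interval -0.45 to 0.12, limma adjusted p = 0.291). It passed as lower with equal library totals (-0.39, adjusted p = 0.0126) and without knockout library 2 (-0.30, adjusted p = 0.0484), and its adjusted p ranged from 0.0126 to 0.993. Mtf1, the zinc-sensing factor known to act on Slc30a1 and the metallothioneins, was at 2.96 and 3.03 FPKM across the wild-type pair and at 2.52 and 2.91 across the knockout pair (limma adjusted p = 0.466). It was singled out after its values were seen. Slc30a7 and Slc30a9 overlapped between genotypes, with log2 fold changes of -0.03 and 0.08. Slc30a9 passed as higher without knockout library 1 (0.28, adjusted p = 0.0316, the range being 0.0316 to 0.953), and Slc30a7 once length and GC trends were taken out (0.32, adjusted p = 0.0169, the range being 0.0169 to 0.971). Among the untested Slc30a genes, Slc30a8, which fills insulin granules, was listed at 0 throughout. Slc30a2, Slc30a3 and Slc30a10 were listed at 0 in wild type and at no more than 0.0572 FPKM in knockout.

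Of the zinc importers, 9 of 14 were tested. Of these 3 rose and 2 fell (33.3% and 22.2%, against 35.2% and 30.6% of all tested genes). Slc39a11 had the largest change, from 3.16 and 2.57 FPKM in wild type to 10.0 and 10.4 FPKM in knockout (3.55-fold; log2 fold change 1.54, SE 0.13, limma adjusted p = 1.87e-07, and 0.95 with a pseudocount of 5). Slc39a6, an importer of the cell surface, was at 10.2 FPKM in each wild-type library and at 21.5 and 23.6 across the knockout pair (2.22-fold, log2 fold change 1.07, SE 0.11, limma adjusted p = 1.96e-06). Slc39a7, which releases zinc from the endoplasmic reticulum and Golgi, was the most abundant zinc transporter, at 114 and 112 FPKM across the wild-type pair and at 163 and 178 across the knockout pair (1.51-fold, log2 fold change 0.59, SE 0.10, limma adjusted p = 1.12e-04). All 3 had both knockout libraries above both wild-type libraries. The Slc39a7 value was 0.32 with equal library totals, and Gm20427, annotated on the same strand, shares 2084 exon bases with it.

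The 2 importers that fell did so by less. Slc39a3, an importer of the cell surface, was at 28.5 and 30.1 FPKM across the wild-type pair and at 22.8 and 19.8 across the knockout pair (1.37-fold lower, log2 fold change -0.44, SE 0.11, limma adjusted p = 0.00343). Its value was -0.70 with equal library totals, and the call ended once length and GC trends were taken out (-0.22, adjusted p = 0.0693) and without wild-type library 2 (-0.41, adjusted p = 0.0559), over a range of adjusted p of 0.000122 to 0.0693. Slc39a14, which brings in zinc, iron and manganese and is known to be induced in inflammation, was at 25.1 and 29.4 FPKM across the wild-type pair and at 19.4 and 22.9 across the knockout pair (1.29-fold lower, log2 fold change -0.35, SE 0.12, limma adjusted p = 0.0222). In both genes the knockout libraries lay below wild type. The Slc39a14 call was lost with no filter (adjusted p = 0.0663), without wild-type library 2 (-0.24, adjusted p = 0.289), without knockout library 1 (-0.24, 0.111) and with length and GC trends removed (-0.11, 0.434). Its adjusted p ranged from 0.000459 to 0.434, and its value was -0.60 with equal library totals.

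Slc39a1, a widely expressed importer of the cell surface, was at 70.9 and 69.9 FPKM across the wild-type pair and at 73.2 and 68.1 across the knockout pair. Its interval was narrow around 0 (log2 fold change 0.0035, 95% interval -0.21 to 0.22, limma adjusted p = 0.978), and with equal library totals it passed as lower (-0.26, adjusted p = 0.0299, over a range of 0.0299 to 0.98). Slc39a13, a Golgi transporter needed in connective tissue, was at 35.3 and 32.8 FPKM across the wild-type pair and at 42.2 and 38.0 across the knockout pair and did not pass (log2 fold change 0.23, limma adjusted p = 0.0773). It passed as higher without knockout library 2 (0.30, adjusted p = 0.025) and once length and GC trends were taken out (0.26, 0.0301), the range being 0.025 to 0.82. Slc39a10 and Slc39a9 did not pass either, with log2 fold changes of 0.26 and -0.02, and Slc39a10 passed as higher without knockout library 1 (0.40, adjusted p = 0.0284) and with length and GC trends removed (0.42, 0.0086), over a range of 0.0086 to 0.765. Slc39a9 passed as lower with equal library totals (-0.26, adjusted p = 0.0443, the range being 0.0443 to 0.961). Slc39a7 gave 37.7% and 37.1% of the summed Slc39a FPKM in the wild-type pair and 44.4% and 47.0% in the knockout pair, and Slc39a1 gave 23.5% and 23.1%, then 19.9% and 18.0%. The untested importers stayed under 1 FPKM. Slc39a8, which carries zinc, manganese and iron, was at 0.270 and 0.354 FPKM across the wild-type pair and at 0.716 and 0.933 across the knockout pair, and Slc39a4, the importer of the gut, at 0.132 and 0.0785 against 0.602 and 0.415. Slc39a2 was at 0.489 and 0.828 against 0.332 and 0.348 FPKM, and Slc39a5 and Slc39a12 were listed at 0 throughout.

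The zinc transporter sum differed by less than the sum of the metallothionein and ferritin genes. The 24 Slc30a and Slc39a genes summed to 373 and 376 FPKM across the wild-type pair and to 449 and 477 across the knockout pair, 1.24-fold by the means, and the sum of all FPKM was 1.20-fold higher in knockout. The 5 metallothionein and ferritin genes summed to 2121 and 2548 FPKM across the wild-type pair and to 7832 and 8072 across the knockout pair, 3.41-fold. These sums were not tested, and they are led by the abundant genes in each set. Among the 15 tested zinc transporters 5 rose (33.3%, near the 35.2% of all tested genes) and 2 fell (13.3%, against 30.6%), with a median log2 fold change of 0.23.

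Other genes of iron handling come from a list of 29 symbols that holds no member. Of 21 tested, 8 rose, 5 fell and 8 did not pass, shares near the 35.2% and 30.6% of all tested genes, with a median log2 fold change of 0.15 against 0.03 for all. Hmox1, heme oxygenase, which frees iron from heme, was at 3.00 and 2.94 FPKM across the wild-type pair and at 172 and 176 across the knockout pair (log2 fold change 5.47, SE 0.11, limma adjusted p = 1.53e-13). Slc25a37, which carries iron into mitochondria, rose from 9.74 and 10.3 FPKM to 28.8 and 30.6 FPKM (limma adjusted p = 7.57e-08), and Pcbp1, a chaperone that delivers iron to ferritin, from 185 and 182 FPKM to 289 and 308 FPKM (limma adjusted p = 1.68e-05). Bmp6, the ligand known to induce hepcidin in liver, fell from 38.1 and 34.7 FPKM to 7.15 and 6.92 FPKM (limma adjusted p = 1.66e-09). The other 4 that fell, named after their values were seen, were Ncoa4, the receptor that sends ferritin to lysosomes (log2 fold change -0.78), Steap2 and Steap4, metal reductases (-0.56 and -0.59), and Hfe2, hemojuvelin, a partner of Bmp6 (-0.58). Steap2 and Hfe2 reached 1 FPKM only in the wild-type pair, and Lcn2, among those that rose, only in the knockout pair. For these low genes the filter fixed the direction. Trf, transferrin, rose by 0.67 on the log2 scale from 3.07 and 2.56 FPKM and was also named after its value was seen.

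Genes known as targets of NRF2, the oxidant-sensing factor that also acts on ferritin, ferroportin and Hmox1, rose in 12 of 13 cases. Their median log2 fold change was 1.46, against 0.03 for all tested genes, of which 35.2% rose. Slc7a11 and Osgin1 are in both values. Each was under 1 FPKM in both wild-type libraries and passed the filter through knockout alone, so only a rise was open to them. The list was chosen with earlier results of these data known. Srxn1, which repairs oxidised peroxiredoxins, rose 17.3-fold, Gclm, a subunit of the enzyme that starts glutathione synthesis, 6.94-fold and Prdx1, a peroxiredoxin, 4.18-fold (limma adjusted p = 4.96e-12, 1.85e-10 and 4.09e-10). Slc7a11, the cystine importer, was listed at 0 in wild-type library 1 and at 0.018 FPKM in wild-type library 2, and stood at 16.8 and 18.6 FPKM in knockout (limma adjusted p = 9.83e-12). Abcc1 was the one that did not pass. The part of these genes in the member values was not tested.

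Markers of other cells moved in the same libraries, in which 35.2% of all tested genes rose and 30.6% fell. The marker lists were also chosen with earlier results of these data known. Macrophage markers rose in 12 of 14 cases, with Mertk lower and Cd163 not passing, and their sum went from 98.7 and 102 FPKM in wild type to 563 and 483 FPKM in knockout. Adgre1, Fcgr1, Itgam and Ptprc were under 1 FPKM in both wild-type libraries. They passed the filter through the knockout pair alone, so a rise was the only direction open to them. The part of macrophages in the rises of Slc11a1, Slc40a1, Ftl1 and the other members was not tested. The smooth muscle markers that define the labelled tissue were present in every library and fell in 10 of 10 cases, from a sum of 20865 and 23227 FPKM to 4941 and 6554 FPKM. Endothelial markers fell in 9 of 9 tested cases and fibroblast markers in 7 of 10, with 2 fibroblast genes higher. Erythroid markers, which matter here because red cell precursors carry much transferrin receptor, summed to 211 and 235 FPKM across the wild-type pair and to 82.3 and 236 across the knockout pair. Of the 3 tested erythroid markers 1 fell and 2 did not pass. Klf1, a transcription factor of red cell precursors, stayed under 0.12 FPKM in each library. Alas2, also on that list, was at 1.295 and 1.419 FPKM across the wild-type pair and at 0.812 and 1.349 across the knockout pair. Both genes were named after their values were seen. The part of red cell precursors in the Tfrc values was not tested. Of the 2 tested adipocyte markers 1 fell, and no T or B cell marker passed the filter, their sum being at most 1.13 FPKM in a library.

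**Figure D4:**
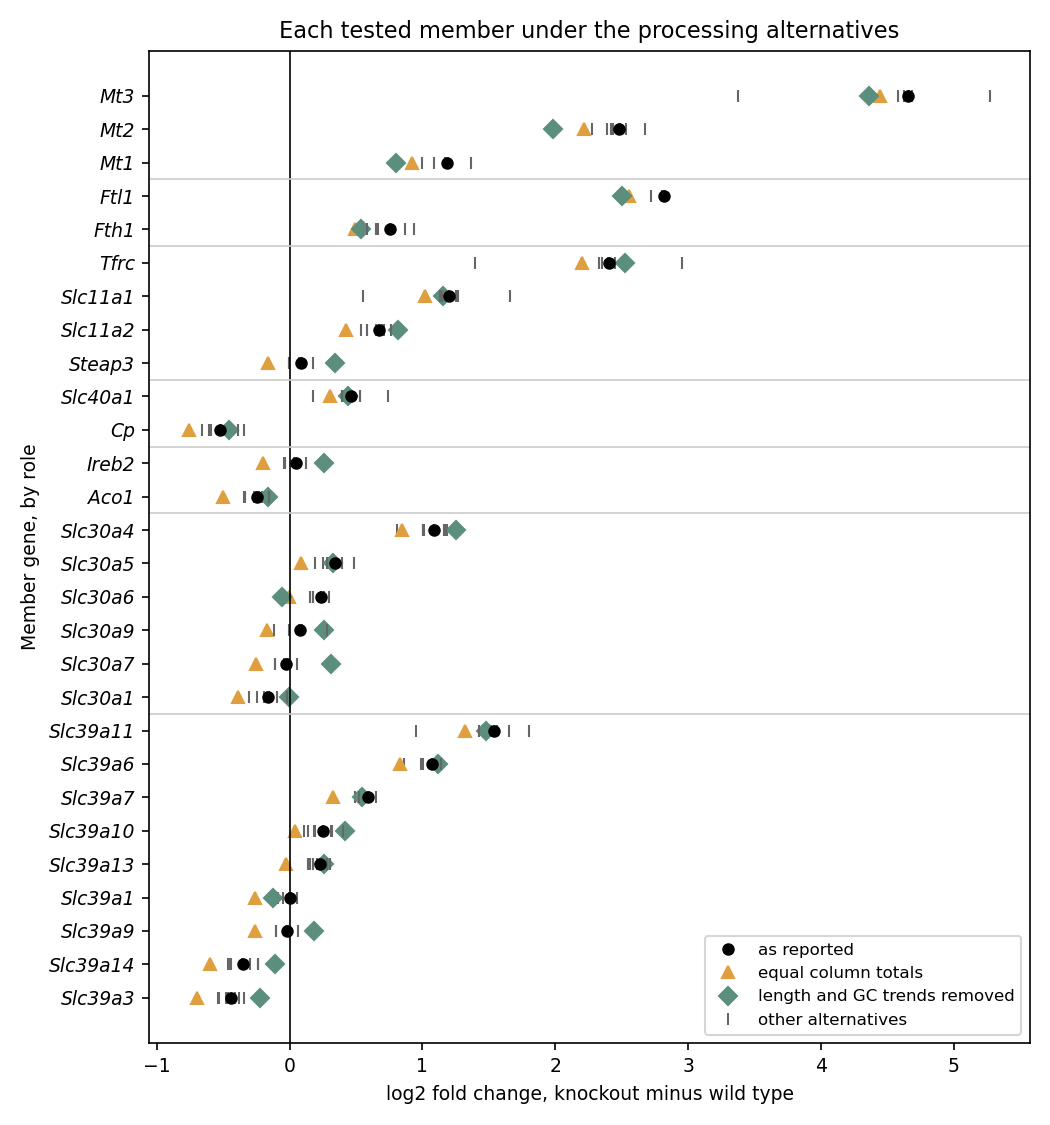
Log2 fold change, knockout minus wild type, of the 28 tested members as reported (black circles) and under up to 13 processing alternatives, with equal column totals as orange triangles and length and GC trends removed as green diamonds. The metallothionein and ferritin genes and Tfrc stay above 0 in all of them, and the genes whose marks cross 0 are ones that did not pass the test.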

How the data were processed

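FPKM values, 1 file per library, were made by the authors and deposited, per the file headers, where the unit is misspelt. Build mm10 and the programs featureCounts 1.5.0-p3, HISAT2 2.0.5 and DESeq2 1.16.1 are named without roles, per the submitters' processing notes. Which program made the FPKM and the use of strand are not given in these sources. Besides the exon overlaps given with the results, Cp shares 108 bases with Hps3 and Ggps1 257 with Arid4b, on opposite strands. Slc30a4 shares 130 with a transcript on the opposite strand, and Ftl1 109 with Gm22133 on the same strand. Exons of Slc30a1, Slc30a7, Slc39a9 and Slc39a13 also overlap genes on the opposite strand. Poly-A RNA was selected, per the labels' protocols. Low values showed no common step between libraries (the most frequent ratio covered at most 0.464% of genes), so fragment counts were not recovered, depth is unknown and precision rests on 2 libraries per genotype. Nothing says that libraries of a genotype came from separate animals, so p-values reflect library-to-library spread alone, which may be technical.

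The 12314 genes reaching 1 FPKM in 2 or more libraries were fitted on log2(FPKM + 1) with limma 3.58.1 in R 4.3.3, with a variance trend and Benjamini-Hochberg adjustment over all of them, threshold 0.05, two-sided. The tests were moderated, each gene's variance being drawn towards the trend over all tested genes. A typical test had 13.4 degrees of freedom, of which 2 came from the gene's own libraries, so small p-values rest largely on the other genes. The log2(FPKM + 1) scale understates the change of low genes, and folds in the text are ratios of mean FPKM. Genes are matched by symbol; coordinates are from GENCODE M21 (GRCm38). Members, lists and tests were chosen with earlier results of these data known. Named were all members, with full values for those called with a mean of at least 5 FPKM and for metallothionein and ferritin genes, and up to 4 called genes of each list by smallest p; a few list genes are not reported here. The alternatives were other pseudocounts, filters, scalings and variance settings, each library left out, and removal of length and GC trends, which was chosen after seeing the data.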

Additional observations from a re-analysis of the deposited data

How the results depend on the processing

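Of 17 called members, 13 kept direction and call under every alternative that could test them (12 higher, and Cp lower). The other 4 were Slc30a5, Slc40a1, Slc39a3 and Slc39a14, whose values stand with the results. The count of members called higher ranged from 12 to 19. The count called lower was 3, and it was 7 with equal column totals, 4 with equal upper quartiles, 2 with no filter, 1 with length and GC trends removed and 1 to 5 with single libraries left out (1 without wild-type library 2, 5 without knockout library 2). Of 361 member values under alternatives, 21 turned sign, each of a gene that did not pass in the main test, and the cause was not tested. With equal column totals, which lower every knockout value, these were Slc30a6 (-0.0032), Slc30a9 (-0.17), Slc39a1 (-0.26), Slc39a13 (-0.029), Ireb2 (-0.20) and Steap3 (-0.17). With equal upper quartiles they were Slc30a9 (-0.0078), Slc39a1 (-0.088), Ireb2 (-0.041) and Steap3 (-0.0022). With length and GC trends removed they were Slc30a6 (-0.058), Slc30a7 (0.32, limma adjusted p = 0.0169), Slc39a1 (-0.13) and Slc39a9 (0.18). With single libraries left out the ranges that crossed 0 were -0.11 to 0.057 for Slc30a7, -0.12 to 0.28 for Slc30a9, -0.048 to 0.055 for Slc39a1, -0.10 to 0.065 for Slc39a9, -0.032 to 0.12 for Ireb2 and -0.00084 to 0.17 for Steap3. Where a library is left out, the lone one of its genotype is assumed to vary like the others. The filter of 5 FPKM removed Slc11a1, Slc40a1 and Slc39a10. Length and GC content were known for 96.3% of tested genes. No paired analysis was possible because the labels number the libraries 1 to 4 across both genotypes, so no number is shared, and library numbers in the text only follow their order of listing. Depth is unknown, so no detection limit is given for genes listed at 0.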

Other observations

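Copper and zinc regulators outside the members rose in 5 and fell in 2 of 10 tested cases, against 35.2% and 30.6% of all tested genes (median log2 fold change 0.36). Atox1, the chaperone that hands copper to the secretory pathway, was at 219 FPKM in each wild-type library and at 495 and 493 across the knockout pair (limma adjusted p = 8.9e-08). Cox17, the copper chaperone of cytochrome oxidase, was at 125 FPKM in each wild-type library and at 223 and 231 across the knockout pair (limma adjusted p = 2.54e-06). Sod1, copper and zinc superoxide dismutase, rose 1.73-fold and Commd1, which acts on copper export, 1.79-fold. The copper importer Slc31a1 rose from 8.87 and 8.83 FPKM to 12.6 and 13.8 FPKM. The 2 that fell were Trpm7, a channel that passes zinc and magnesium (log2 fold change -0.43), and Slc31a2, a copper transporter of vesicles (-0.31). The last 3 genes were named after their values were seen.

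Heme synthesis genes rose in 5 and fell in 1 of 9 tested cases, against the same shares of all genes (median log2 fold change 0.28). Alad and Uros rose by 0.39 and 0.37 on the log2 scale. Ppox, which makes protoporphyrin, fell from 24.5 and 24.1 FPKM to 12.7 and 13.6 FPKM (limma adjusted p = 1.51e-05). Fech, which inserts the iron, was at 15.7 and 17.1 FPKM across the wild-type pair and at 14.2 and 17.1 across the knockout pair and did not pass (limma adjusted p = 0.663). It was named after its value was seen.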
